A study of Mus musculus with 2 samples.

Results

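The Notch ligands, receptors and effectors examined here are 10 genes, taken by symbol from the 32285 genes listed in each of 2 single-cell RNA-Seq libraries of mouse small intestine. They are the ligands Dll1, Dll4 and Jag1, the receptors Notch1 and Notch2, the receptor-modifying enzyme Mfng, the transcription factor Rbpj, and the targets Hes1, Hey1 and Nrarp. All 10 rows were found in both libraries, and the symbols were chosen for their roles in the pathway. The study asked how the Neurog3+ lineage of the gut epithelium differs when FoxO1, a nutrient-sensing transcription factor, is removed from it. WT mice carried Neurog3Cre and a Rosa26tdtomato reporter, so that any cell that had once expressed Neurog3, and its descendants, became Tomato+. NFKO mice carried the same Cre and reporter together with floxed FoxO1 (FoxO1 f/f), so that the same lineage is the one in which FoxO1 is targeted. For each genotype the small intestines of 4 to 5 animals, 4 to 6 weeks old, were combined after the pancreas was taken off, and Tomato+ epithelial cells were sorted into 1 library. Each group is therefore a single sample, cells outside the Neurog3 lineage were not measured, and no difference below has a replicate check or a p-value.

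Notch is a contact signal between neighbouring cells. A ligand on the surface of the sending cell binds a Notch receptor on the receiving cell, the receptor is cut, and its inner part enters the nucleus, where it joins RBPJ and switches on targets such as Hes1. In the intestinal crypt, cells that receive the signal keep dividing or become absorptive enterocytes, whereas cells that escape it express Atoh1, become secretory and display DLL1 and DLL4 to their neighbours.

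The WT library held 3003 cells and 78722460 UMIs (unique molecular identifiers, each standing for 1 captured transcript) after filtering, and the NFKO library held 5292 cells and 111249836 UMIs. Cells were clustered with the 10 members left out, and clusters were named only from marker lists. The 9 classes compared were stem-like (291 WT and 187 NFKO cells), cycling (102 and 291), unnamed cluster 10 (77 and 223), endocrine progenitor-like (172 and 365), enteroendocrine-like (718 and 1541), goblet-like (837 and 1562), Paneth-like (264 and 247), tuft-like (89 and 172) and enterocyte-like (266 and 375). The stem-like cluster also expressed 8 of 8 cycling markers, and cluster 10, which no marker list named and which was kept as a class after its leading genes were seen, was led by genes that include Dll1 itself, Spdef and Gfi1. Clusters 15 (149 WT and 110 NFKO cells) and 16 (38 and 219) were also unnamed and are not among the classes. Their median depths, 3511 and 1886 UMIs, were far below those of the libraries, 16883 and 17039. Cluster 15 held 7 of 8 enteroendocrine markers. Foxo1 transcripts stood at 11.6 UMIs per 1000000 UMIs (CPM) in WT and 12.4 in NFKO, a ratio of 1.07. That value shows no loss of Foxo1 transcript, and whether counting at the 3′ end would see a deletion inside the gene was not tested. NFKO below means the library labelled so. Most cells with sex-linked transcripts were typed male in WT (2424 male, 6 female) and female in NFKO (357 male, 4359 female), so genotype and sex cannot be told apart. The summed level of 12 stress genes was lower in NFKO in 9 of 9 classes, at 0.597 to 0.818 of its WT level. Endothelial markers, which would carry their own Notch genes, summed to at most 20.8 CPM in any named class. A list of 7 immune markers summed to 282 CPM over all WT cells and 149.5 over all NFKO cells, and was lower in NFKO in 6 of the 9 classes. Over the classes it ranged from 24.8 to 799 CPM in WT and from 20.8 to 491 in NFKO. Stem-like cells held the highest sum in both libraries, with 5 of the 7 markers at 0 in WT and 4 in NFKO. In all, 4 cell barcodes occurred in both libraries.

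Levels below are in CPM, each gene's UMIs scaled to 1000000 UMIs of its class, and each comes with its exact Poisson 95% interval or, for a ratio, an exact binomial one. These intervals cover counting error only, not differences between mice. A ratio was called higher or lower when it was at least 1.5-fold either way, its interval left out 1 and the gene had at least 20 UMIs over both libraries. Levels are compared between classes and libraries for the same gene, and not between genes.

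**Figure D1:**
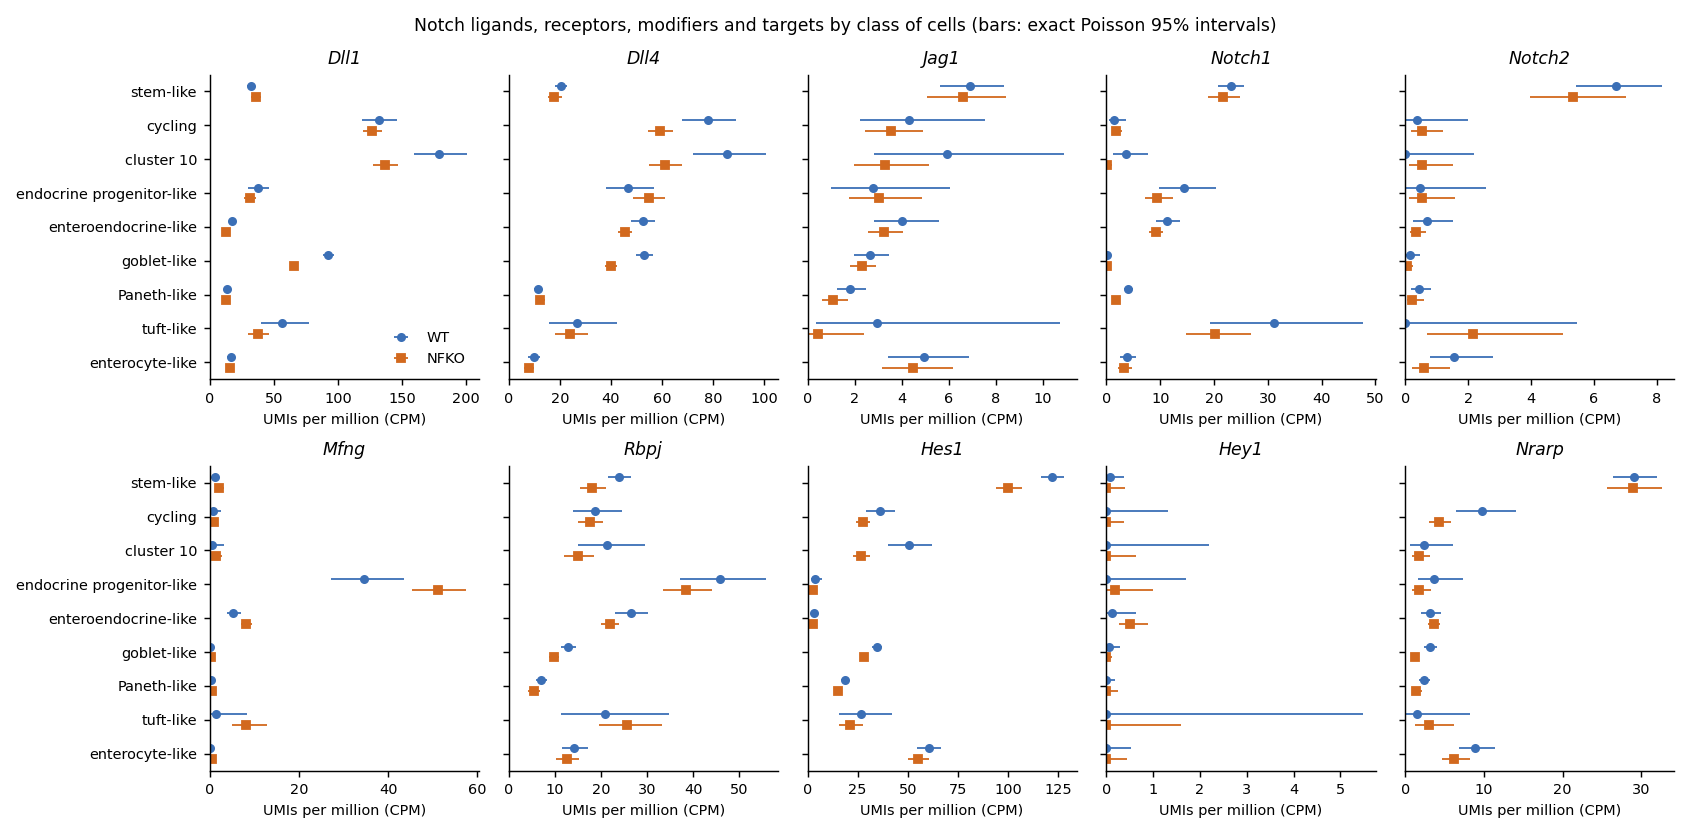
Level of each of the 10 genes in CPM (horizontal axes, each from 0 on its own linear scale) in 9 classes of cells, with WT as blue circles, NFKO as orange squares and exact Poisson 95% intervals as bars. Of the 9 classes, Dll1 and Dll4 peak in cluster 10 and cycling cells, and Hes1, Nrarp and Notch2 in stem-like cells, in both libraries. Mfng and Rbpj peak in endocrine progenitor-like cells in both. For Dll4 in NFKO, the endocrine progenitor-like interval overlaps those of cluster 10 and cycling cells.

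Dll1 was highest in cluster 10 and in cycling cells, and low in stem-like and mature enteroendocrine-like cells. Dll1 (ENSMUSG00000014773, chr17:15367354-15376872, minus strand, GRCm38) encodes the Delta-like ligand of secretory progenitors. In cluster 10 it reached 179 CPM in WT (159 to 200.4) and 137 in NFKO (128 to 147). Cycling cells followed with 132 CPM (119 to 146) in WT and 127 (120.0 to 134) in NFKO, so the intervals of these 2 classes separated in WT and overlapped in NFKO. The cycling class does not stand for all dividing cells, since the stem-like cluster held 8 of 8 cycling markers. After thinning to 2000 UMIs, Atoh1 was seen in 22.5% of WT and 28.9% of NFKO cycling cells, beside 5.84% and 16.1% of stem-like cells. Stem-like cells held 32.3 CPM (29.4 to 35.3) and 35.8 (32.1 to 39.8), which put cluster 10 above them 5.55-fold (4.79 to 6.42) in WT and 3.83-fold (3.37 to 4.36) in NFKO. Goblet-like cells kept much of the ligand, at 92.6 CPM (88.3 to 97.0) in WT and 65.3 (62.5 to 68.3) in NFKO. Enteroendocrine-like cells held 17.6 CPM (14.9 to 20.6) and 13 (11.6 to 14.5), and Paneth-like cells 13.4 and 12.4 CPM. The Paneth-like class is mixed, since cluster 9 held 3.60 and 5.62 CPM and cluster 17 (116 WT and 86 NFKO cells) held far more. In Paneth-like cells 50 genes took 76.1% of UMIs in WT and 73.6% in NFKO, which lowers the CPM of the rest. Cells thinned to 2000 UMIs each gave the same picture, since Dll1 was seen in 28.6% of WT and 23.9% of NFKO cells of cluster 10, in 4.47% and 5.91% of stem-like cells, and in 16.7% and 11.1% of goblet-like cells.

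Dll4 was also highest by class in cluster 10 and cycling cells, and differed in the endocrine branch, where it stayed on. Dll4 (ENSMUSG00000027314, chr2:119325784-119335962, plus strand) encodes the other Delta-like ligand of the crypt. Its level in cluster 10 was 85.4 CPM (72.0 to 101) in WT and 61.0 (54.8 to 67.7) in NFKO. Cycling cells held 78.0 CPM (68.0 to 89.1) and 59.2 (54.4 to 64.2), overlapping cluster 10 in both libraries. Endocrine progenitor-like cells had 46.7 CPM (38.1 to 56.8) in WT and 54.8 (48.8 to 61.3) in NFKO, above stem-like cells by 2.29-fold and 3.06-fold. The NFKO interval overlapped those of cluster 10 and cycling cells. Inside the enteroendocrine-like class, cluster 6, led by Tac1, held 67.7 CPM (56.8 to 80.0) in WT, overlapping cluster 10. In NFKO it held 92.3 (82.4 to 103), above cluster 10 with separate intervals. Unlike Dll1, which was 2.13-fold and 2.40-fold higher in endocrine progenitor-like than in enteroendocrine-like cells, Dll4 in enteroendocrine-like cells was 52.4 CPM (47.7 to 57.4) in WT, overlapping the progenitor-like level, and 45.5 (42.8 to 48.3) in NFKO, below it with separate intervals. Enterocyte-like cells held the least Dll4, 9.73 CPM in WT and 7.79 in NFKO, beside Paneth-like cells with 11.4 and 12.4. The Paneth-like values are lowered by the share of UMIs that the most abundant genes take there.

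The stretches before the 2 Delta-like genes are shown because these ligands mark the sending cells and shared their top class. Both are RefSeq promoters of GRCm38.p6, 250 bases up to the start, read on the gene's strand; capitals mark matches, on either strand, to 4 short motifs, TGGGAA (RBPJ), CAGCTG (an E-box of basic helix-loop-helix activators), CACNAG (the N-box of HES repressors) and CACGTG (an E-box). Over all 32851 promoter windows of that length the motifs occurred in 21.6%, 13%, 36.7% and 6.02% respectively, and no base of a member lay in more than 1 match. Dll1 (chr17:15376933-15377182, minus strand) held 1 CAGCTG, 132 bases before its start, and Dll4 (chr2:119325534-119325783, plus strand) held 1 CACNAG, 75 bases before its start.
Dll1: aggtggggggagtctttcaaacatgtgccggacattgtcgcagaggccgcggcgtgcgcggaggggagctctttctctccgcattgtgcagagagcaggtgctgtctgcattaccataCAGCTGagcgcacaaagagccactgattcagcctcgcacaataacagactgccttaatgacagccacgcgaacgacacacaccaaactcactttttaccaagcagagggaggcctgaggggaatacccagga
Dll4: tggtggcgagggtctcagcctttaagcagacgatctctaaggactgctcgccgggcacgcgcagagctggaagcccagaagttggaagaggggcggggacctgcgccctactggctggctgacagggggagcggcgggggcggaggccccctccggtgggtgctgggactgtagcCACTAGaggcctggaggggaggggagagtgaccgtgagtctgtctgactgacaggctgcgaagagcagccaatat
A second Dll1 entry, at a start further into the gene, held none of the 4 motifs, and a match here is a description of letters only.

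Jag1 was the weakest of the 3 ligands to follow and did not share the secretory pattern. Jag1 (ENSMUSG00000027276, chr2:137081456-137116644, minus strand) encodes a Jagged ligand. It was highest in stem-like cells, with 6.90 CPM (5.63 to 8.38) in WT and 6.61 (5.08 to 8.45) in NFKO, and these intervals overlapped those of the next classes in order. Goblet-like cells held 2.64 and 2.33 CPM, so stem-like cells were 2.62-fold and 2.84-fold above them. No class gave a called difference between the libraries for Jag1, and its tuft-like counts were 2 and 1 UMIs.

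Notch1 was highest in the stem-like, tuft-like and endocrine classes and was almost not seen in goblet-like cells. Notch1 (ENSMUSG00000026923, chr2:26457903-26516663, minus strand) encodes a receptor. Stem-like cells held 23.1 CPM (20.7 to 25.7) in WT and 21.7 (18.8 to 24.9) in NFKO, a ratio of 0.941 (0.787 to 1.12). Tuft-like cells, at 31.2 CPM (19.3 to 47.7) and 20.2 (14.8 to 26.8), overlapped them in both libraries. Endocrine progenitor-like cells came next with 14.3 CPM (9.75 to 20.4) and 9.49 (7.11 to 12.4), then enteroendocrine-like cells with 11.3 and 9.13. Goblet-like cells gave 3 Notch1 UMIs in 3 of 837 WT cells (0.358%) and 6 in 5 of 1562 NFKO cells (0.320%), at levels 146-fold (49.5 to 711) and 112-fold (50.5 to 308) below stem-like cells. Cycling cells were also low, with 4 and 17 UMIs, 16.1-fold (6.21 to 59.2) and 12.3-fold (7.50 to 21.5) below stem-like cells, and cluster 10 had 6 and 1. Cluster 10, cycling and goblet-like cells, the 3 classes with the most Dll1, each held under 4 CPM of Notch1 in both libraries. Low Notch1 was not confined to them. Enterocyte-like cells, which were low in Dll1, held 3.81 CPM of Notch1 in WT and 3.29 in NFKO. Paneth-like cells, the lowest in Dll1 as a class, held 4.07 and 1.73.

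Notch2 could be measured in stem-like cells alone. Notch2 (ENSMUSG00000027878, chr3:98013527-98150361, plus strand) encodes the other receptor. It reached 6.70 CPM (5.44 to 8.16) in WT and 5.35 (3.98 to 7.03) in NFKO there, from 99 and 51 UMIs, with a ratio of 0.798 (0.558 to 1.13). In every other class it stayed at 0 to 11 UMIs in a library. Stem-like cells were 9.70-fold above enteroendocrine-like cells in WT and 15.7-fold in NFKO, and their interval separated from the next class in WT and overlapped that of tuft-like cells in NFKO.

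Mfng was the member most restricted to the endocrine progenitor-like cells. Mfng (ENSMUSG00000018169, chr15:78755882-78773475, minus strand) encodes Manic fringe, a glycosyltransferase that adds sugars to Notch receptors and alters which ligands they answer. Endocrine progenitor-like cells held 34.7 CPM (27.3 to 43.5) in WT and 51.2 (45.4 to 57.5) in NFKO. Enteroendocrine-like cells held 5.30 CPM (3.88 to 7.06) and 8.24 (7.11 to 9.48), so the progenitor-like class was 6.55-fold and 6.22-fold higher. Against stem-like cells it was 27.0-fold (16.2 to 47.3) higher in WT and 25.7-fold (16.2 to 43.3) in NFKO, and in goblet-like cells only 1 and 6 UMIs were counted. A Mfng UMI was present in 26.7% of WT and 41.9% of NFKO progenitor-like cells at full depth, and in 4.65% and 8.26% after thinning.

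Rbpj, the DNA-binding partner of the cut receptor, was found in every class and also peaked in endocrine progenitor-like cells. Rbpj (ENSMUSG00000039191, chr5:53466152-53657362, plus strand) stood there at 45.8 CPM (37.2 to 55.8) in WT and 38.5 (33.5 to 44.0) in NFKO, separate from every other class in both libraries. The fold over stem-like cells was 1.92 and 2.12, over goblet-like cells 3.53 and 3.93, and over Paneth-like cells, the lowest class, 6.45 and 7.13. Its span over the classes was therefore small beside that of Hes1 or Mfng. The Paneth-like fold has a limit. The 50 most abundant genes took 76.1% and 73.6% of Paneth-like UMIs, beside 27.1% and 24.9% of progenitor-like UMIs. That share lowers the CPM of every other gene. At full depth a Rbpj UMI was seen in 34.5% and 25.1% of Paneth-like cells, and in 42.4% and 46.0% of progenitor-like cells. Median depths were 52837.5 and 39094 UMIs, beside 12694.5 and 15296.

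Hes1, the repressor that Notch switches on and that keeps Atoh1 and Neurog3 off, was highest in stem-like cells and nearly absent from the endocrine branch. Hes1 (ENSMUSG00000022528, chr16:30064384-30067796, plus strand) reached 122 CPM (117 to 128) in WT stem-like cells and 100.2 (94.0 to 107) in NFKO ones. Enterocyte-like cells were second, with 60.4 CPM (54.8 to 66.4) and 55.3 (50.3 to 60.6). At the other end stood endocrine progenitor-like cells, 3.70 CPM (1.60 to 7.29) and 2.51 (1.37 to 4.20), and enteroendocrine-like cells, 2.99 (1.96 to 4.39) and 2.47 (1.88 to 3.2). These last 2 classes overlapped each other and were separate from all the rest in both libraries. The fold of stem-like over enteroendocrine-like cells was 40.8 (27.8 to 62.6) in WT and 40.5 (31.1 to 53.8) in NFKO. Secretory cells were not all low in Hes1, since goblet-like cells held 34.5 CPM (31.9 to 37.3) and 28.3 (26.5 to 30.2), 11.5-fold and 11.4-fold above enteroendocrine-like cells. In thinned cells Hes1 was seen in 23.7% (18.9 to 29.0) of WT and 17.7% (12.5 to 24.0) of NFKO stem-like cells, and in 0.420% and 0.531% of enteroendocrine-like cells, the class that serves here as the background level.

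Nrarp, a target that in turn limits Notch signalling, resembled Hes1 in its peak and not in its tail. Nrarp (ENSMUSG00000078202, chr2:25180758-25183339, plus strand) stood at 29.1 CPM (26.4 to 32.0) in WT and 28.9 (25.6 to 32.6) in NFKO stem-like cells, with a ratio of 0.994 (0.852 to 1.16). Enterocyte-like cells were again high, at 8.89 and 6.21 CPM, and enteroendocrine-like cells held 3.11 and 3.58, for a stem-like excess of 9.36-fold and 8.07-fold. Goblet-like cells held 3.11 CPM (2.37 to 4.01) in WT and 1.23 (0.870 to 1.69) in NFKO, which made the stem-like excess over them 9.35-fold (7.11 to 12.5) in WT and 23.5-fold (16.7 to 34.0) in NFKO. Hey1 (ENSMUSG00000040289, chr3:8663359-8667256, minus strand), a further target best known in blood vessels, was at the limit of detection, with 3 UMIs in the whole WT library and 13 in NFKO, 12 of the latter in enteroendocrine-like cells.

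The same promoter window is shown for Rbpj and Nrarp, the effector genes with an entry, to set their letters beside their opposite peaks. Rbpj (chr5:53590096-53590345, plus strand) held TGGGAA 149 and 65 bases before its start, and Nrarp (chr2:25180508-25180757, plus strand) held CACNAG 179 and 79 bases and CACGTG 108 bases before its start. The Rbpj window lies inside the gene (chr5:53466152-53657362), before an internal start and not at the first base of the gene. A second, overlapping Rbpj entry (chr5:53590236-53590485) held 1 TGGGAA, 205 bases before its start.
Rbpj: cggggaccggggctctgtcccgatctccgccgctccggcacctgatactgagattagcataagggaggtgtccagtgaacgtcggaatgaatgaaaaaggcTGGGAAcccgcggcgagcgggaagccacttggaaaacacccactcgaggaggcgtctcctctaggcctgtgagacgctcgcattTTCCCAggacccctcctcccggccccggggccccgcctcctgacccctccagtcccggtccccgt
Nrarp: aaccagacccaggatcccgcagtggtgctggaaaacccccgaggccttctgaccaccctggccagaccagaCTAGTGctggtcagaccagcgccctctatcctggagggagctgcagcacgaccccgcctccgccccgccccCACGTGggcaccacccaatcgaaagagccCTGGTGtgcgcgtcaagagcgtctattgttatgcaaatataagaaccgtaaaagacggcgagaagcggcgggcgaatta
Among the remaining members with an entry, Jag1 held CAGCTG 82 bases before its start, Notch1 held CACNAG at 108 bases and Notch2 at 247 bases. The Notch1 window (chr2:26503823-26504072, minus strand) also lies inside its gene (chr2:26457903-26516663). Hes1, Hey1 and Mfng had no entry.

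Within the endocrine branch, the members were also set against the number of Neurog3 transcripts in a cell. Neurog3 is the factor that commits a cell to the endocrine fate and is present only briefly. Cells were grouped by the Neurog3 UMIs left after thinning, while levels use all UMIs of these cells. Thinned endocrine progenitor-like and enteroendocrine-like cells with 0 Neurog3 UMIs numbered 749 in WT and 1562 in NFKO. Another 68 and 113 had 1, and 69 and 196 had at least 2. Thinning lost Neurog3 from some cells, so part of the 0 group held it. At full depth 125 WT and 284 NFKO progenitor-like cells had Neurog3, beside 95 and 207 after thinning. For enteroendocrine-like cells the counts were 75 and 181, beside 42 and 102. Neurog3 is also among the markers that name the progenitor-like class, so these groups partly repeat the contrast between the 2 classes. Mfng stood at 6.03, 32.1 and 44.8 CPM over these 3 groups in WT and at 7.68, 43.3 and 74.0 in NFKO, 7.43-fold (4.78 to 11.4) and 9.63-fold (7.89 to 11.8) higher in the last group than in the first. Dll1 was higher in the last group by 1.79-fold (1.17 to 2.67) in WT and 2.16-fold (1.69 to 2.72) in NFKO, and Rbpj by 1.64-fold (1.14 to 2.32) and 1.61-fold (1.30 to 1.98). Rbpj was not ordered by group, at 27.3, 48.1 and 44.8 CPM in WT and 22.7, 42.1 and 36.5 in NFKO. Dll4 stood at 49.0, 67.6 and 59.0 CPM in WT, with a fold of 1.20 (0.880 to 1.61) that spanned 1. In NFKO it stood at 41.6, 60.4 and 85.4 CPM with a fold of 2.05 (1.78 to 2.35). Hes1 stood at 2.30 (1.43 to 3.52), 11.5 (5.49 to 21.1) and 3.54 (0.730 to 10.3) CPM in WT, so that the 10 UMIs of the middle group separated from the first, and at 2.42, 1.83 and 3.35 CPM in NFKO. Its folds of the last over the first group, 1.54 (0.294 to 5.15) and 1.38 (0.630 to 2.72), spanned 1. Nrarp was lower in the last group in NFKO, 0.272-fold (0.0550 to 0.820) with 3 UMIs there, and gave 0.371 (0.00908 to 2.24) in WT. Median UMIs per cell lay between 12245 and 15686 over the 6 groups of cells, and cells of a group come from the same library.

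**Figure D2:**
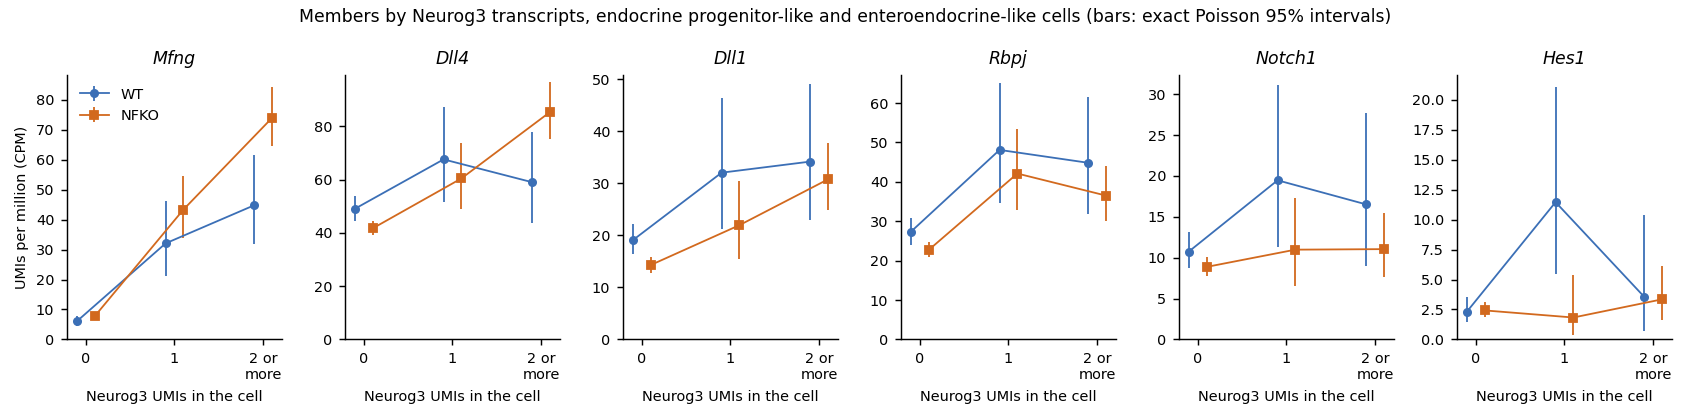
Level in CPM (vertical axes, each from 0) of 6 members in endocrine progenitor-like and enteroendocrine-like cells with 0, 1 and at least 2 Neurog3 UMIs (horizontal axes), WT in blue and NFKO in orange, bars showing exact Poisson 95% intervals. Groups are by Neurog3 UMIs left after thinning, and levels use all UMIs of the cells. Mfng climbs to 44.8 CPM in WT and 74.0 in NFKO, and Hes1 stays under 12 CPM in every group.

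The enteroendocrine-like clusters differed from each other in the members they expressed most. Notch1 stood highest in the Sst cluster (cluster 18, led by the gene of the hormone somatostatin), at 35.7 CPM (17.8 to 63.9) in WT and 34.3 (26.3 to 44.1) in NFKO, a level near that of stem-like cells. In WT it could not be separated from the Pzp and Cck cluster (cluster 22), at 35.1 CPM (14.1 to 72.4), which held 13.5 (8.37 to 20.7) in NFKO. The Cartpt cluster (cluster 11) held little Notch1 in NFKO, 2 UMIs in 265 cells or 0.820 CPM (0.0992 to 2.96). Its 33 WT cells gave 0 UMIs (0 to 11.6 CPM). The Sst cluster also held the most Jag1, 16.2 CPM (5.27 to 37.9) and 11.8 (7.32 to 18.1), and little Dll4, 22.7 and 18. Dll4 was instead high in the Tac1 cluster (cluster 6), at 67.7 CPM (56.8 to 80.0) in WT and 92.3 (82.4 to 103) in NFKO, and the 2 intervals separated. Mfng in that cluster stood at 9.95 CPM (6.08 to 15.4) and 26.1 (20.9 to 32.1), a ratio of 2.62 (1.60 to 4.49) that was called higher, beside 5.25% of all genes in the cluster. Dll4 was called lower in NFKO in 3 small clusters. In the Pzp and Cck cluster it stood at 95.4 CPM (57.4 to 149) in WT, from 19 UMIs in 13 cells, and 38.0 (28.9 to 49.0) in NFKO, beside 7.19% of genes called lower. Summed stress genes in that cluster stood at 16439 and 6780.25 CPM, and their part was not tested. In the Nts cluster Dll4 stood at 93.0 CPM (49.5 to 159) in WT, from 13 UMIs in 35 cells, and 42.2 (31.8 to 54.9) in NFKO, beside 8.87% of genes, with median depths of 3572 and 16636 UMIs. In the Cartpt cluster it stood at 72.3 CPM (45.8 to 109) in WT, from 23 UMIs in 33 cells, and 38.9 (31.5 to 47.6) in NFKO, beside 3.4%. All 3 calls thus rest on few WT cells. Dll1 was called lower in the Gcg cluster, 26.4 CPM in WT and 15.1 in NFKO, with a ratio of 0.572 (0.390 to 0.836), beside 4.85% of genes. In the Gip cluster Dll4 stood at 48.0 CPM (40.0 to 57.1) and 37.1 (33.0 to 41.6), a ratio of 0.773 (0.626 to 0.960) that was not called.

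**Figure D3:**
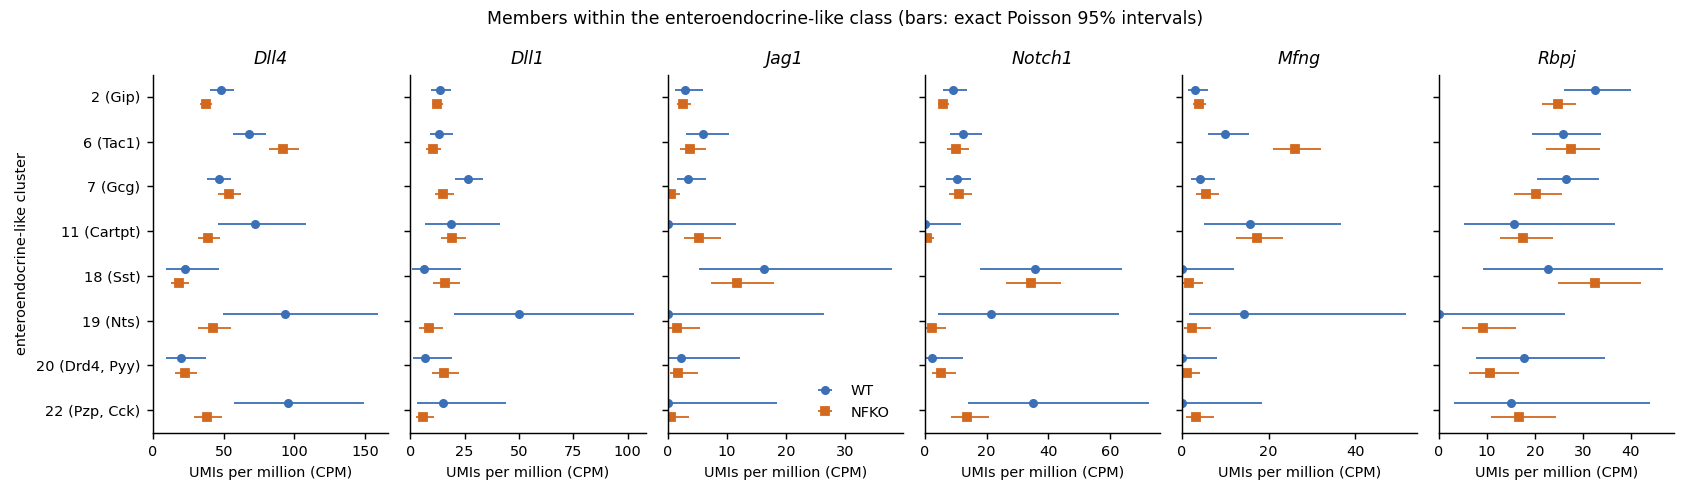
Level in CPM (horizontal axes, each from 0) of 6 members in the 8 enteroendocrine-like clusters, named by a leading gene, WT as blue circles and NFKO as orange squares with exact Poisson 95% intervals. Notch1 is high in the Sst cluster in both libraries, and Mfng is 9.95 CPM in WT and 26.1 in NFKO in the Tac1 cluster.

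NFKO set beside WT class by class gave mostly lower values of the members, few of them past the call. Of 62 ratios with enough UMIs over the 9 classes, 51 were below 1, 20 had an interval wholly below 1 and 2 had one wholly above, both for Mfng. Over all 101216 counted gene and class pairs, 48.7% of ratios were below 1, 16.4% had an interval wholly below 1 and 18.6% one wholly above. By class, 7 of 9 counted members were below 1 in stem-like cells, where 52.5% of all counted genes were, and 6 of 6 in goblet-like cells, where 53.2% of all genes were. Paneth-like cells had 6 of 7 members below 1 against 36.6% of all genes, and cluster 10 had 5 of 5 against 46.2%. Cycling cells had 6 of 7 against 46.9%, enteroendocrine-like cells 6 of 8 against 56.4%, tuft-like cells 4 of 6 against 50.3% and enterocyte-like cells 7 of 7 against 51.9%. Intervals wholly below 1 were found for 5 of 6 members in goblet-like cells, beside 24.6% of all genes, for 3 of 8 in enteroendocrine-like cells, beside 24.8%, and for 2 of 9 in stem-like cells, beside 20.9%. The median log2 ratio of the members was −0.09 in stem-like cells (all genes −0.02), −0.51 in cluster 10 (0.04), −0.27 in enteroendocrine-like cells (−0.05), −0.40 in Paneth-like cells (0.13) and −0.40 in goblet-like cells (−0.03). Endocrine progenitor-like cells had 4 of 7 members below 1 against 41.4% of all genes, with a median of −0.25 beside 0.07.

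Calls of 1.5-fold or more were 1 higher and 6 lower over these classes, set here beside the share of all counted genes called higher and lower. In stem-like cells 0 of 9 members were called (4.56% and 5.71% of all genes), in endocrine progenitor-like cells 0 of 7 (5.85% and 3.38%) and in enterocyte-like cells 0 of 7 (10.1% and 7.99%). Called lower were 1 of 7 members in cycling cells (5.26% higher and 5.03% lower among all genes), 1 of 5 in cluster 10 (4.86% and 4.76%), 1 of 6 in goblet-like cells (8.02% and 5.9%), 2 of 7 in Paneth-like cells (9.77% and 5.07%) and 1 of 6 in tuft-like cells (11.9% and 11.7%). Enteroendocrine-like cells had 1 of 8 members called higher (5.82% and 7.16%). With 5 to 9 members counted in a class, 1 call already exceeds these shares, and nothing is read from a single call.

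**Figure D4:**
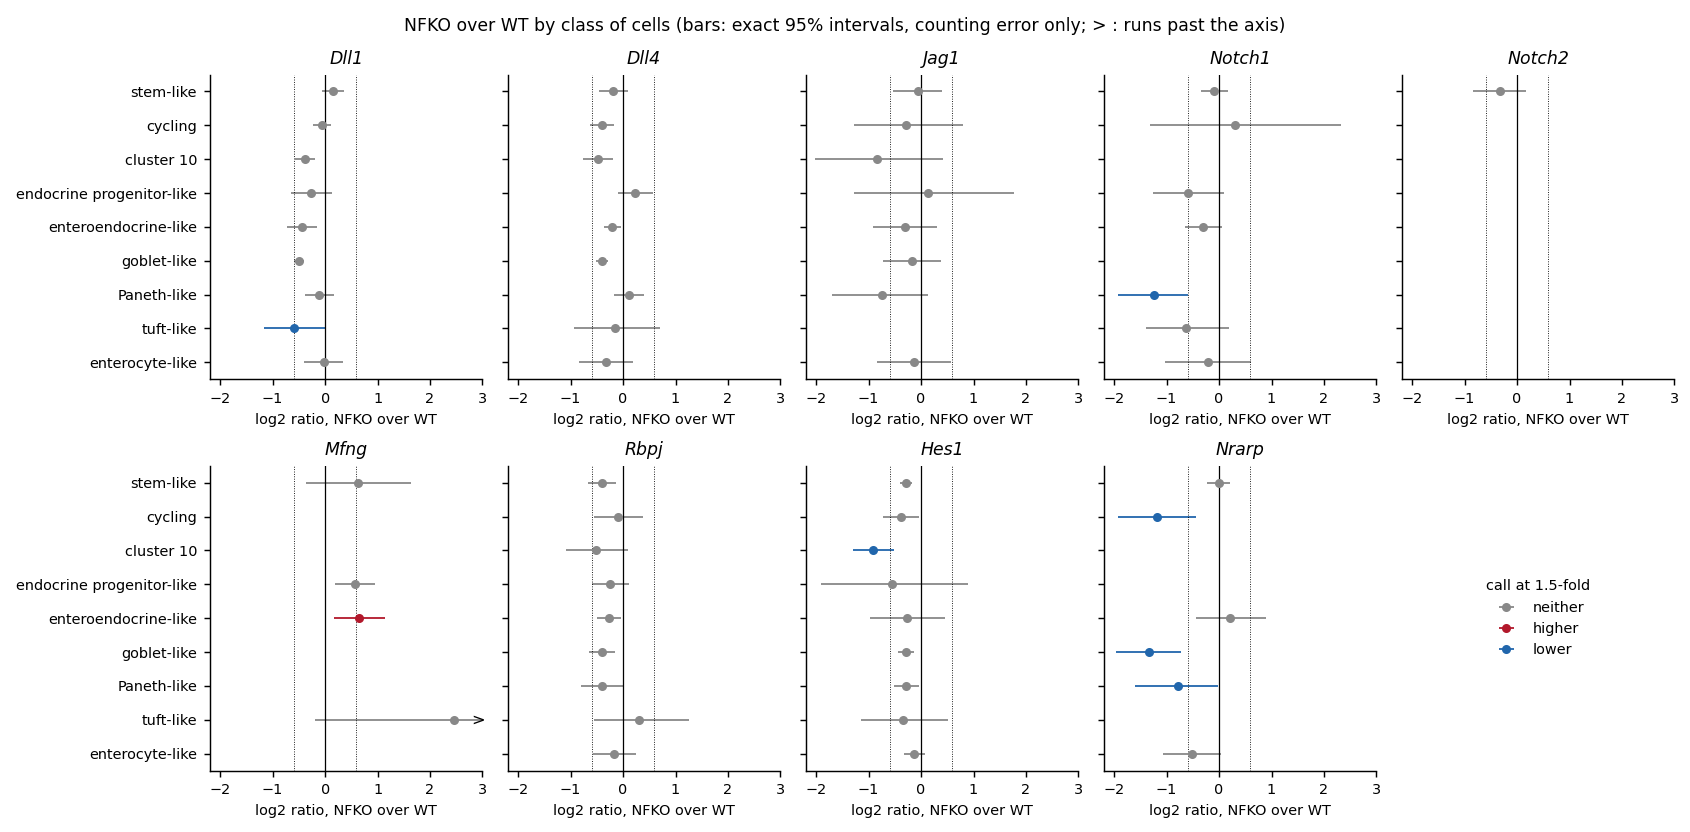
Log2 ratio of NFKO over WT (horizontal axes) for the 9 members with enough UMIs, in each class where they had at least 20, with exact 95% intervals as bars, dotted lines at 1.5-fold either way, blue for called lower, red for called higher and grey for neither. Most points lie left of 0, Mfng lies right of 0, and Nrarp is called lower in 3 classes.

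Hes1 stood below its WT level in 9 of 9 classes, with intervals wholly below 1 in 5, and other settings turned that direction in some classes. The ratio was 0.821 (0.758 to 0.888) in stem-like, 0.820 (0.740 to 0.908) in goblet-like, 0.822 (0.695 to 0.970) in Paneth-like and 0.766 (0.606 to 0.974) in cycling cells. None of these 4 reached 1.5-fold. Among cells low in stress genes the goblet-like ratio was 1.24 (1.03 to 1.52) and the tuft-like one 2.62 (0.959 to 10), and with a stricter barcode filter the enterocyte-like ratio was 1.23 (1.05 to 1.43) and the enteroendocrine-like one 1.22 (0.711 to 2.21). Male-typed cells gave 1.02 (0.865 to 1.18) in stem-like cells. In cluster 10 Hes1 was called lower, with 50.4 CPM (40.3 to 62.3) in WT, 26.8 (22.7 to 31.3) in NFKO and a ratio of 0.531 (0.405 to 0.70), in a class where 4.76% of all genes were called lower. Summed stress genes in cluster 10 stood at 7106 CPM in WT and 5814 in NFKO, and among its cells low in stress genes the Hes1 ratio was 0.933. The immune list stood at 419.8 and 266 CPM there, all of it from Cd74, with the other 6 markers at 0 in both libraries. The part of either in the difference was not tested. Over all cells Hes1 was 44.9 CPM (43.4 to 46.4) and 27.5 (26.6 to 28.5), a ratio of 0.614 that was called lower beside 4.64% of all genes, and with the classes held at the same mix it was 0.821.

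Nrarp was called lower in goblet-like, cycling and Paneth-like cells, and its level in stem-like cells differed by less than counting error. In goblet-like cells the ratio was 0.395 (0.256 to 0.604) from 59 and 38 UMIs, in a class where 5.9% of genes were called lower. Of the WT UMIs 46 came from cluster 3, which held 584 WT and 23 NFKO cells and gave 0 UMIs in NFKO. The ratio was 0.694 (0.290 to 1.91) in cluster 0, from 7 and 24 UMIs. It was 0.162 (0.058 to 0.514) in cluster 1, from 6 and 14 UMIs, and was called lower there. Summed stress genes in the class stood at 6164 CPM in WT and 4268 in NFKO, and their part was not tested. Cycling cells held 9.70 CPM (6.4 to 14.1) in WT and 4.26 (3.05 to 5.78) in NFKO, a ratio of 0.439 (0.263 to 0.742), beside 5.03% of genes called lower. Paneth-like cells held 2.41 CPM (1.80 to 3.17) and 1.40 (0.866 to 2.14), a ratio of 0.580 (0.331 to 0.981), beside 5.07% of genes. Notch1 was called lower in Paneth-like cells too, from 4.07 CPM (3.26 to 5.03) to 1.73 (1.13 to 2.54), with a ratio of 0.426 (0.263 to 0.667). The 50 most abundant genes took 76.1% of Paneth-like UMIs in WT and 73.6% in NFKO, which lowers the CPM of every other gene of that class. The immune list stood at 121 CPM in WT and 44.3 in NFKO Paneth-like cells, and its part was not tested.

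The ligand Dll1 was called lower in tuft-like cells, at 56.4 CPM (39.9 to 77.4) in WT and 37.3 (29.9 to 46.1) in NFKO, with a ratio of 0.662 (0.447 to 0.996). In tuft-like cells 11.7% of all genes were called lower, and their median depth was 6098 UMIs in WT and 14639 in NFKO. In 3 further classes Dll1 fell short of the call while its ratio interval left out 1. The ratios were 0.706 (0.662 to 0.753) in goblet-like cells, 0.765 (0.669 to 0.876) in cluster 10 and 0.736 (0.604 to 0.900) in enteroendocrine-like cells. Dll4 gave ratios of 0.756 (0.695 to 0.823), 0.714 (0.587 to 0.873) and 0.868 (0.777 to 0.971) in the same classes. Other secretory classes had intervals that held 1 for both ligands. Paneth-like cells gave 0.925 (0.765 to 1.12) for Dll1 and 1.09 (0.892 to 1.32) for Dll4. Endocrine progenitor-like cells gave 0.831 (0.635 to 1.10) and 1.17 (0.933 to 1.48). In stem-like cells neither ligand differed beyond counting error, with 1.11 (0.961 to 1.28) for Dll1 and 0.877 for Dll4.

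Mfng was the only member called higher in a class. In enteroendocrine-like cells its ratio was 1.56 (1.12 to 2.19) from 46 and 193 UMIs, in a class where 5.82% of genes were called higher. Endocrine progenitor-like cells gave 1.48 (1.14 to 1.93) from 75 and 286 UMIs, just under 1.5-fold. Among enteroendocrine-like cells low in stress genes the ratio was 0.711 (0.341 to 1.62), and summed stress genes in the class stood at 11184 CPM in WT and 6919.95 in NFKO; their part was not tested. Over all cells Mfng was 1.98 CPM (1.68 to 2.32) and 4.97 (4.57 to 5.40), a ratio of 2.51 that was called higher beside 16.9% of all genes, and 1.54 with the classes held at the same mix.

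Clusters inside a class did not always differ in the same direction. Over the 23 clusters 118 member ratios had enough UMIs, of which 2 were called higher and 20 lower, beside 7.05% and 6.54% of all gene and cluster pairs. The goblet-like class was made of cluster 0 (162 WT and 754 NFKO cells), cluster 1 (91 and 785) and cluster 3 (584 and 23), the last led by Edn2, Areg and the heat-shock gene Hspa1a. Hes1 in cluster 1 stood at 88.4 CPM (66.8 to 115) in WT and 34.7 (31.0 to 38.8) in NFKO, a ratio of 0.393 (0.295 to 0.532) called lower beside 12.9% of the cluster's genes, whereas in cluster 0 it stood at 17.5 (13.8 to 21.9) and 25.7 (23.6 to 27.9), a ratio of 1.47 (1.15 to 1.89). Dll1 showed the same split, with 0.396 (0.292 to 0.545) in cluster 1 and 1.26 (1.11 to 1.44) in cluster 0. Stress genes summed to 1556 CPM in WT and 5069 in NFKO in cluster 0, and to 3556 and 2276 in cluster 1, so they stood on the same side as both genes in each cluster, and their part was not tested. Holding the clusters at the same mix, a comparison chosen after seeing the data, gave a goblet-like ratio of 0.719 for Hes1 and 0.899 for Dll1. In enterocyte-like cells Hes1 was called lower in cluster 8, from 108 CPM (84.4 to 136) to 26.7 (21.6 to 32.7) beside 13% of the cluster's genes, and stood at 55.5 (49.9 to 61.6) and 77.1 (69.3 to 85.5) in cluster 13, a ratio of 1.39 (1.20 to 1.61). Stress genes were lower in NFKO in both of those clusters, at 0.458 and 0.650 of WT. Paneth-like cells split by ligand, since cluster 17 (116 WT and 86 NFKO cells) held 56.7 and 42.8 CPM of Dll1 where cluster 9 held 3.60 and 5.62. Dll1 was called higher in cluster 9, with a ratio of 1.56 (1.09 to 2.24) beside 13.1% of the cluster's genes. In the shallow cluster 16 Hes1 was called lower, from 67.4 CPM (33.6 to 121) to 16.6 (7.58 to 31.5) on 11 and 9 UMIs, beside 8.46% of genes, while the immune list went from 11903 to 416 CPM there, and its part was not tested.

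**Figure D5:**
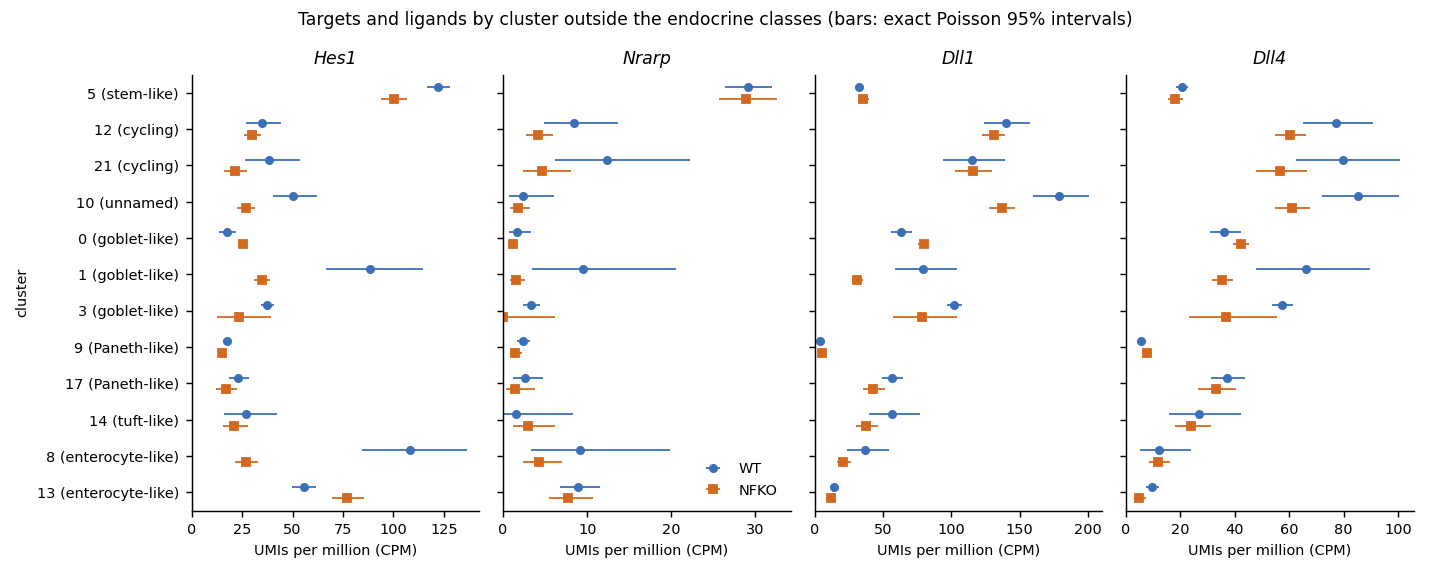
Level in CPM (horizontal axes, each from 0) of Hes1, Nrarp, Dll1 and Dll4 in the 12 clusters of the other classes (clusters 15 and 16 are not shown), WT as blue circles and NFKO as orange squares with exact Poisson 95% intervals. Hes1 is higher in WT in clusters 1 and 8 and higher in NFKO in clusters 0 and 13.

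Sending and receiving transcripts were also set beside each other in the same cells, after thinning to 2000 UMIs. In WT goblet-like cells Hes1 was seen in 8.57% (12 of 140) of cells with Dll1 and 6.18% of cells without it, and in NFKO in 4.17% (7 of 168) and 6.43%. Stem-like cells gave 2 of 13 cells with Dll1 beside 24.1% of those without in WT, and 0 of 11 beside 18.9% in NFKO. In cluster 10 the WT counts were 0 of 22 with Dll1 and 10.9% without, and the NFKO counts 4 of 53 and 5.33%. These 6 pairs of intervals overlapped. Overlap is given here and below as a description, since it does not test the difference between 2 shares. Mfng was seen in 11.6% (24 of 207) of NFKO progenitor-like cells with Neurog3 and 3.85% of those without, with intervals of 7.57 to 16.8 and 1.42 to 8.18 that overlapped. In NFKO enteroendocrine-like cells the intervals separated, with Mfng in 7.84% (3.45 to 14.9) of cells with Neurog3 and 1.14% (0.652 to 1.84) without, and Dll4 in 16.7% (10.0 to 25.3) and 7.47% (6.15 to 8.97). Rbpj in NFKO progenitor-like cells ran the other way, 6.28% (3.39 to 10.5) with Neurog3 and 14.7% (9.58 to 21.3) without, and these intervals overlapped.

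Genes whose levels ran most like Hes1 and Dll1 were taken over 45 points, each a cluster in a library, among 12435 genes on the log2(CPM + 1) scale. The nearest to Hes1 by Pearson's r were Smim31 (0.879), Gpr35 (0.865), Cd38 (0.853), Rest (0.848) and Tcim (0.837). The nearest to Dll1 were Slc35a2 (0.837), Pdxdc1 (0.833), Nans (0.805), Mlph (0.803) and Atp13a3 (0.802). Among the members themselves r was 0.520 for Dll1 with Dll4, 0.40 for Hes1 with Nrarp, 0.403 for Mfng with Notch1 and −0.398 for Hes1 with Mfng. Points of the same library share its depth and its mice, so these values only describe the 45 points.

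Another 51 genes of the pathway, in 9 lists, gave 325 counted gene and class pairs, of which 30 were called higher and 15 lower in NFKO. Over all gene and class pairs 7.23% were called higher and 6.22% lower, and the counts of each list below are to be read against these shares. Of each list the genes with the largest ratios are named. Other ligands gave 6 of 16 pairs higher and 0 lower. Dlk1, an atypical ligand, stood at 1.27 CPM in WT and 26.4 in NFKO enteroendocrine-like cells, a ratio of 20.9 (11.6 to 42), and Jag2, a second Jagged ligand, was 3.48-fold (1.94 to 6.52) higher in Paneth-like cells. Among other receptors 0 of 6 pairs were called, and Notch4 gave a ratio of 0.658 (0.350 to 1.19) in stem-like cells. Receptor glycosylation genes gave 0 of 34 higher and 2 lower, both Lfng, which encodes Lunatic fringe, a relative of Mfng. Lfng stood at 8.52 CPM in WT and 3.29 in NFKO enteroendocrine-like cells, where Mfng was called higher, and at 15 and 7.57 in goblet-like cells. Rfng, the last of the fringe genes, gave a ratio of 1.55 (0.884 to 2.87) in endocrine progenitor-like cells.

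Downstream of the ligands, the ubiquitin ligases that prepare them for signalling gave 5 of 33 pairs higher and 3 lower, led by Neurl1a at 3.87-fold (2.97 to 5.11) and Neurl1b at 3.45-fold (2.11 to 5.96) in goblet-like cells. Receptor cleavage genes gave 3 of 73 higher and 1 lower, with the largest ratios for Aph1b in cluster 10 (3.08, 0.752 to 27.1) and Aph1c in enteroendocrine-like cells (1.76, 0.585 to 7.12), neither of them called. Receptor turnover genes gave 2 of 53 higher and 3 lower, led by Dtx3 in goblet-like cells (3.31, 1.67 to 7.30) and Fbxw7 in tuft-like cells (0.465, 0.269 to 0.820). RBPJ co-factors gave 3 of 63 higher and 5 lower, led by Hdac1 in Paneth-like cells (1.82) and Maml3 in tuft-like cells (0.570). Other HES and HEY genes gave 2 of 15 higher and 0 lower, Hes2 in enterocyte-like cells (1.97) and Hes6 in tuft-like cells (1.5).

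The last list held Atoh1 and Neurog3, which Hes1 keeps off, together with Gfi1 and Spdef. It gave 9 of 32 pairs higher and 1 lower, the latter in enterocyte-like cells. The largest ratios were those of Neurog3 in enterocyte-like cells, with 0 UMIs in WT and 40 in NFKO (in 4 cells, 20 of them in 1 cell), and of Gfi1 in enteroendocrine-like cells, 2.72 (0.817 to 14.2), which was not called. Chosen after their values were seen, Atoh1 in stem-like cells rose from 42.5 CPM to 65.8, where 4.56% of genes were called higher, and Neurog3 in endocrine progenitor-like cells rose from 572 to 906, a ratio of 1.58 (1.49 to 1.69), where 5.85% were.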

How the data were processed

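Tomato+ small intestinal cells were measured by 3′ single-cell RNA-Seq in 1 WT and 1 NFKO library. The deposited files hold whole-number UMI counts per gene and barcode, which the authors made against mm10 with Cell Ranger 5.0.1 according to the submitters' processing notes. No other column of per-sample values was left unmapped.

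A barcode was kept from 500 genes and 1000 UMIs upward if mitochondrial UMIs made up no more than 25%, and these limits removed 38.1% of 5051 WT and 25.3% of 7540 NFKO barcodes. The mitochondrial limit alone was exceeded by 35.6% and 17.3% of them. Scrublet's own threshold marked 2 and 0 doublets, so the highest-scoring barcodes, 0.8% per 1000 barcodes, were removed instead (126 and 340). Both libraries were clustered together (Seurat 5.3.0 in R 4.3.3, 2000 variable genes, 30 components, 20 neighbours, resolution 0.8), with 67 genes kept out: the members, the other pathway genes, Foxo1 and sex-linked genes. A cluster was named when at least 3 markers of a class were 2-fold above the other cells and present in 10% of its cells, thresholds set after the data were seen, and 20 of 23 clusters were named. A cluster far below the median depth of both libraries lost its name unless its 10 leading genes held more markers of that class than of any other. Cluster 10 is compared by its number, and the shallow unnamed clusters 15 and 16 are in no class.

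UMI counts were summed per class and library and given per 1000000 UMIs (Python 3.11.15, scanpy 1.11.5, numpy 2.4.6, scipy 1.17.1, figures with matplotlib 3.10.9), with exact 95% intervals: Poisson for levels, conditional binomial for ratios, Clopper-Pearson for shares. For shares and for the groups by Neurog3, cells were thinned to 2000 UMIs, which left out 32 WT and 337 NFKO cells. With 1 library per group there was no test between conditions. The 10 members were named in full, and of each list of other pathway genes the genes with the largest ratio either way. The scripts were tested on simulated data. The members and gene lists were chosen with earlier results of these data known. Alternatives were other filters, clusterings, class definitions and weights, cells typed male, and cells low in stress genes. Gene positions are from GENCODE M21 (GRCm38).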

Additional observations from a re-analysis of the deposited data

How the results depend on the processing

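The 62 ratios gave 1 higher and 6 lower calls. The count called higher became 2 with a stricter barcode filter, with male-typed cells and with cells low in stress genes, 0 with another clustering seed and 3 with equal weight per cell. The count called lower became 3 with male-typed cells, 12 with classes drawn by each cell's own marker score and 10 with equal weight per cell. Male-typed cells turned the median log2 ratio of the members to 0.16 in Paneth-like and 0.35 in enterocyte-like cells, and the marker score moved that of stem-like cells to −0.51. The ratio of Mfng in enteroendocrine-like cells reversed to 0.711 among cells low in stress genes.

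Hes1 in stem-like over enteroendocrine-like cells moved to 19.5 in WT with cells low in stress genes, and in NFKO to 59.5 with those, 182 with male-typed cells and 30.8 with doublets kept. Dll1 in cluster 10 over stem-like cells became 6.56 in WT with equal weight per cell and 3.08 in NFKO with male-typed cells. The stem-like over goblet-like fold of Nrarp became 5.94 in WT and 9.94 in NFKO by marker score, and that of Notch1 49.2 in WT at resolution 0.4. Mfng in endocrine progenitor-like over goblet-like cells became 1140.1 in NFKO with cells low in stress genes. The cause of these shifts was not tested.

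Over the alternatives, the call was kept in 10 of 11 for Nrarp in goblet-like cells (0.241 to 0.742) and Notch1 in Paneth-like cells, 9 of 11 for Nrarp in cycling cells, 8 of 11 for Nrarp in Paneth-like cells, 7 of 9 for Hes1 in cluster 10 (0.504 to 0.933), and 5 of 11 each for Dll1 in tuft-like cells (0.565 to 0.682) and Mfng in enteroendocrine-like cells. Hes1 in goblet-like cells was 1.24 (1.03 to 1.52) among cells low in stress genes and 0.558 among male-typed cells. Resolution 0.4 gave no cluster 10. Leaving out a replicate was not possible with 1 library per group. No paired analysis was possible because each group has 1 library, so that replicate 1 only names the single sample of each.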
